A study of Rattus norvegicus with 31 samples.

Results

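Blood cells of adult rats whose mothers were underfed in early pregnancy were compared with those of rats from normally fed mothers. The comparison uses the arrays titled CR and WT, 18 of the 31 arrays in the series, and every gene they measure. The CR group (11 arrays) holds offspring of dams restricted in calories by 20% from day 1 to day 12 of pregnancy, which were then suckled normally. The WT group (7 arrays) holds offspring of unrestricted dams, also suckled normally; these are the controls of the protocol, called WT in sample titles, and no mutation is named. The other 13 arrays, from restricted offspring given leptin while suckling, entered no difference and served only to estimate the spread between arrays. Female and male offspring were used, and all groups then ate chow freely for 4 months before blood was drawn. Mononuclear cells of peripheral blood (PBMC), mostly lymphocytes with monocytes, were frozen and their total RNA was labelled red (Cy5). Each red sample was hybridised against the same green (Cy3) pool, made from 5 random samples per group, with no dye swap. All arrays came from the offspring of 16 mated rats, so some animals shared a dam; the labels name neither dam nor sex of a sample, and p-values therefore measure the spread between samples that are not all independent.

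As background, a shortage of food in early pregnancy reaches the embryo while its organs form, and offspring of underfed dams are widely studied for altered weight, insulin handling and lipid metabolism in adult life. PBMC are used in such work because they can be drawn repeatedly and carry transcripts of insulin, leptin and fat metabolism next to those of immunity. Maternal diet is thought to leave marks through chromatin and through the supply of methyl groups. Genes of chromatin, methionine metabolism, stress response and inflammation were read with those of metabolism. The lists and their members were chosen with earlier results of these data known, so shares given for them are descriptions and not tests.

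Each value below is a log2 ratio of a sample over the pool, and each difference is the CR mean minus the WT mean on that scale, with ± SE; group means carry ± SD. Median red intensity of the 18 arrays lay between 69.8 and 235, against a local background of 27.0 to 30.5, and red spots well above background made up 57.5% to 83.6% of each array. Both upper ends are WT replicate 6; the other arrays lay between 69.8 and 89.5 and between 57.5% and 65.0%, and without that array 27 features passed instead of the 102 reported below, within the range of 17 to 207 that leaving out any 1 array gave. The arrays lay on 8 slides, 7 of which held 1 WT array and at least 1 CR array. Of marker lists for mononuclear cells, 20 T cell, 16 B cell, 18 monocyte and 14 natural killer (NK) and cytotoxic cell genes were measured. Markers of granulocytes (17 genes), platelets (12) and red cells (20) were measured as well, although a mononuclear preparation should hold few of these cells. WT replicate 1 stood apart from the other WT arrays in several chaperone and B cell genes, and WT replicate 7 was the lowest array for platelet genes; these arrays are named beside the results they touch.

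Few features passed the threshold between restricted offspring and controls, and the differences of those that passed were small. Of 22264 features tested (1 probe per gene, or per probe where no gene is named), 102 passed an adjusted p of 0.05 (0.458%), with 78 higher in CR (0.35%) and 24 lower (0.108%). Of these, 75 carry a gene symbol, 58 higher and 17 lower. The size of the 102 differences ran from 0.16 to 0.60, with a median of 0.31 or 1.24-fold, and only 5 exceeded 0.5. Without adjustment, 2755 features had p under 0.05 (12.4%), 1677 higher (7.53%) and 1078 lower (4.84%). Over all features the median difference was 0.012, 55.5% lay above 0, and the central 90% lay between -0.16 and 0.20. Arrays of one group differed among themselves about as much in WT as in CR, with a median SD over features of 0.13 in each.

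**Figure D1:**
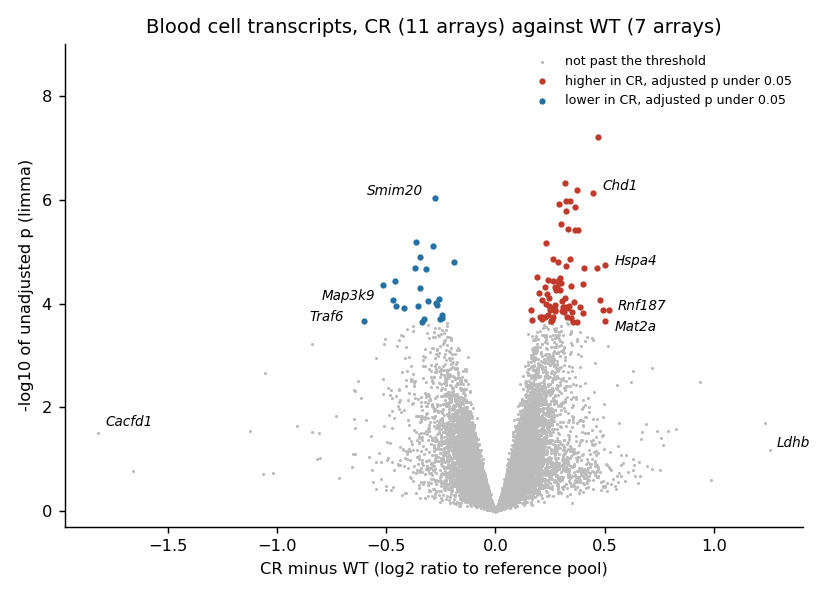
Each point is 1 of 22264 features, with the CR minus WT difference (log2 ratio to the pool) on the horizontal axis and -log10 of the unadjusted limma p on the vertical axis. The 78 features past the threshold on the right and 24 on the left lie between 0.16 and 0.60 in size, while larger differences farther out (Ldhb at 1.26 and Cacfd1 at -1.82) do not pass.

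The calls lay mostly among bright features. In the brightest 2 of 5 intensity classes of equal size, 67 features were higher and 23 lower, against 0 in the dimmest class, where the median SE was 0.061. In the class next to the brightest, 41 were higher and 11 lower; in the brightest, 26 and 12. Olfactory receptor genes, which blood cells are not known to use, gave 0 calls in 283 features, where 0.458% of all features were called. Of them 56.2% lay above 0, against 55.5% of all features. Their median of 0.0078 turned to -0.00063 without WT replicate 1 and -0.0069 without WT replicate 6. In the limma fit 10 were higher and 1 lower at an unadjusted p under 0.05 (7.53% and 4.84% of all features).

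The gene with the smallest p was Prep, prolyl endopeptidase, a cytosolic enzyme that cuts short peptides after proline (probe on chromosome 20, 49144583 to 49144642, rat build rn4). Its WT arrays ran from -0.44 to -0.11 with a median of -0.25, and its CR arrays from -0.055 to 0.28 with a median of 0.15, so the groups did not overlap. The difference was 0.37 ± 0.060, or 1.29-fold (adjusted p = 0.00336).

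Chd1, a chromatin remodeller that acts at actively transcribed genes, ran from -0.61 to -0.16 in WT and from -0.16 to 0.23 in CR. Only CR replicate 9 reached into the WT range, by a margin smaller than the spread of either group. The mean moved from -0.38 ± 0.17 (SD, n = 7) to 0.070 ± 0.13 (SD, n = 11), a rise of 0.45 ± 0.073 (adjusted p = 0.00336).

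Srsf9, a splicing factor of the serine/arginine-rich family, had a WT mean of -0.14 ± 0.061 (SD, n = 7) and a CR mean of 0.15 ± 0.11 (SD, n = 11), with WT arrays between -0.25 and -0.059 and CR arrays between -0.039 and 0.38. Rbm12, an RNA-binding protein, had WT arrays between -0.38 and -0.11 and CR arrays between -0.079 and 0.36. Ncbp1, the large subunit of the complex that binds the cap of nascent messenger RNA, had WT arrays between -0.21 and -0.073 and CR arrays between -0.048 and 0.17. In these 3 genes of RNA handling no CR array reached the WT range, and the rises were 0.29 ± 0.049, 0.38 ± 0.068 and 0.23 ± 0.044.

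Dcaf7, a scaffold that recruits substrates to ubiquitin ligases and kinases, had a WT median of -0.24 (from -0.40 to -0.072) and a CR median of 0.094 (from -0.081 to 0.31). Tor1aip2, a partner of torsin ATPases in the endoplasmic reticulum and nuclear envelope, had a WT median of -0.33 (from -0.42 to -0.19) and a CR median of 0.028 (from -0.20 to 0.18). Zfp444, a zinc finger protein, stood between -0.35 and -0.018 in WT and between 0.024 and 0.28 in CR. Dcaf7 and Tor1aip2 overlapped only at the edges of their ranges and Zfp444 did not overlap; the rises were 0.34 ± 0.057, 0.33 ± 0.060 and 0.30 ± 0.053.

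Among genes that fell, Smim20, a small mitochondrial protein needed for cytochrome oxidase assembly, had the smallest p (adjusted p = 0.00336). Its WT arrays lay between -0.0014 and 0.17 and its CR arrays between -0.36 and 0.063, and 10 of 11 CR arrays were below every WT array. It fell by 0.28 ± 0.046 (in log2 units, as all falls here). Rnf139, a ubiquitin ligase of the endoplasmic reticulum that restrains sterol synthesis, ran from 0.12 to 0.44 in WT and from -0.067 to 0.23 in CR, a fall of 0.29 ± 0.054.

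Oser1, an oxidative-stress responsive gene that is a known target of Foxo factors, went from 0.15 ± 0.13 (SD, n = 7) to -0.19 ± 0.14 (SD, n = 11), with WT arrays between 0.013 and 0.39 and CR arrays between -0.36 and 0.058. Eif4h, which helps the helicase of translation initiation, went from 0.14 ± 0.056 to -0.051 ± 0.076; its lowest WT array (0.080) lay just above its highest CR array (0.077). The falls were 0.35 ± 0.067 and 0.19 ± 0.037, with adjusted p of 0.0153 and 0.0164.

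**Figure D2:**
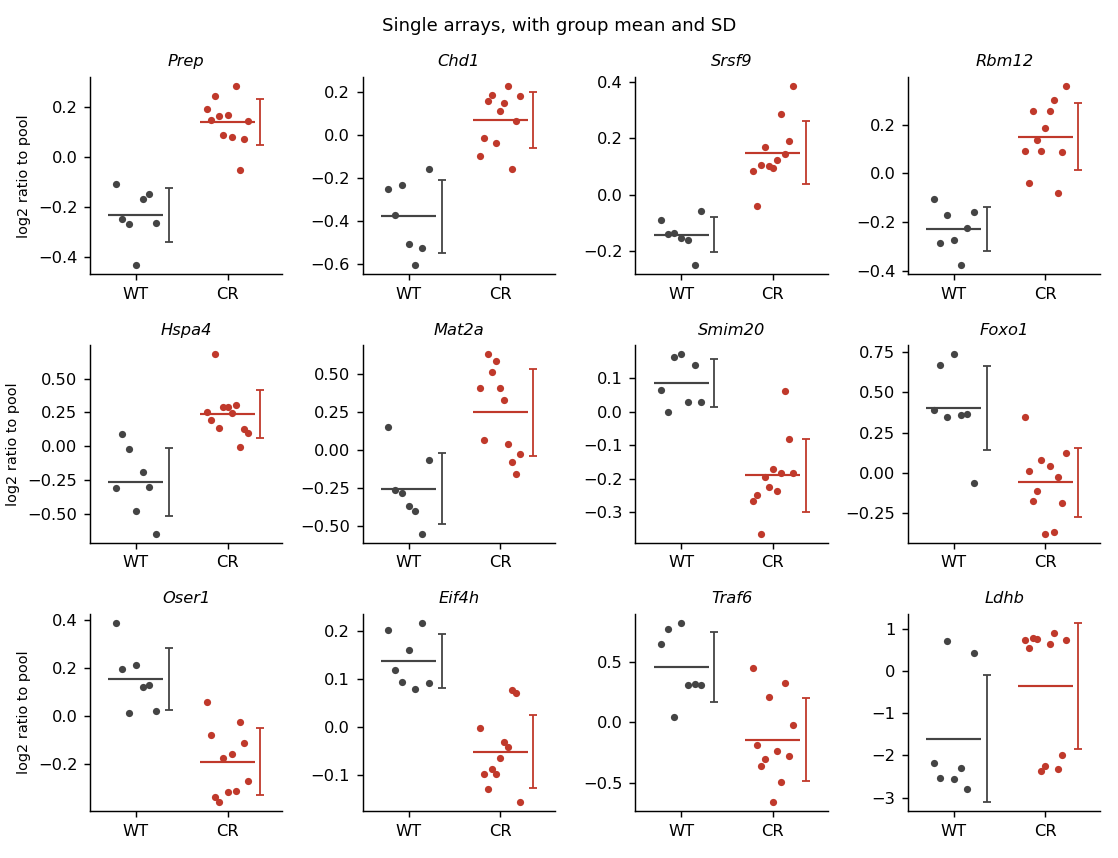
Each panel shows 1 gene, with the log2 ratio to the pool of every WT (7, grey) and CR (11, red) array, the group mean as a line and the SD as a bar to the right. In Prep, Srsf9, Rbm12 and Eif4h no array of one group reaches the other, in Traf6 and Foxo1 the groups overlap, and Ldhb splits into arrays above 0 and arrays near or under -2 in both groups.

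In all, 32 features had no overlap between WT and CR arrays (0.144%), 26 of them higher in CR (0.117%), and 18 of the 32 also passed the threshold. Those past the threshold with a symbol included, besides the genes above, Bahd1, a reader of chromatin that promotes gene silencing (0.34 ± 0.066, from -0.42 to -0.18 in WT and from -0.11 to 0.45 in CR), and Phf23 (0.29 ± 0.061, from -0.41 to -0.20 and from -0.14 to 0.21). Rin3, an exchange factor for Rab5, ran from -0.76 to -0.29 in WT and from -0.27 to 0.039 in CR, and Mterf3, a repressor of mitochondrial transcription, from -0.21 to -0.030 and from 0.0092 to 0.31. Snorc lay on the other side, from 0.14 to 0.45 in WT and from -0.18 to 0.073 in CR, as did the histone gene Hist2h3c2, from 0.085 to 0.33 and from -0.37 to 0.084. In each of these 6 genes the gap between groups was small beside the range within them, and the differences of Rin3, Mterf3 and Snorc were 0.33 ± 0.075, 0.21 ± 0.049 and -0.27 ± 0.060.

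A further 12 named genes did not overlap without passing the threshold; they were picked out after their values were seen. The transcription factor Foxo3 stood at 0.16 ± 0.054 (adjusted p = 0.165) with its 1 other probe on the opposite side of 0, the splicing factor Srsf3 at -0.22 ± 0.065 and Aldh18a1, which starts proline synthesis, at 0.21 ± 0.054. The others were Gse1, Adam1a, Cdip1, Nolc1, Tbl1xr1, Tbcc, Stard7 and Unc13d, all above 0, and Abt1, at -0.29 ± 0.090. Adjusted p over these 12 ran from 0.0558 (Gse1) to 0.304 (Unc13d).

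The features with the smallest p overall carry no gene symbol. A probe on chromosome 6 (11541973 to 11542113, rn4) was higher in CR by 0.47 ± 0.067 (adjusted p = 0.00135), with no overlap of the groups. A second, also on chromosome 6 (133160289 to 133160348), was higher by 0.32 ± 0.051. Of the 27 unnamed features past the threshold, 20 were higher and 7 lower.

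Genes of chromatin were found on both sides. Of 46 chromatin remodellers, Chd1 and Ruvbl1, an ATPase shared by several remodelling complexes (0.21 ± 0.050), rose and 0 fell, against 0.458% of all features; the list median was 0.027 and turned to -0.00071 without WT replicate 2. Hirip3, a partner of the histone chaperone HIRA, rose by 0.30 ± 0.061, and Tmpo, a protein of the inner nuclear membrane that binds the lamina, by 0.36 ± 0.086. Tmpo was the 1 call among 49 genes of nuclear lamina and pores (2.04%) and passed in 5 of the 18 fits that left out 1 array. In that list 10 were higher and 3 lower at an unadjusted p under 0.05 in limma (7.53% and 4.84% of all features). Of 17 histone genes 2 fell, both coding for histone H3: H3f3b, which makes the replacement variant H3.3, went from 0.48 ± 0.10 (SD, n = 7) to 0.063 ± 0.18 (SD, n = 11), and Hist2h3c2 from 0.18 ± 0.099 to -0.16 ± 0.12. Of 69 histone modifying enzymes 0 passed in the limma fit. At an unadjusted p under 0.05, 5 were higher and 3 lower (7.53% and 4.84% of all features). Prmt2, an arginine methyltransferase, came nearest (0.23 ± 0.057, adjusted p = 0.0558).

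Probes of 1 gene did not always give the same value. Chd1 has 3 probes on the array, and their first 30 of 60 bases are given with the start of each probe in the transcript. The pair nearest the 3′ end rose, by 0.45 ± 0.073 and 0.26 ± 0.048, and the probe nearest the 5′ end stood at -0.041 ± 0.077.
Chd1 at 6258: gtaggtgtgtgaacactttcaaaatccaga
Chd1 at 5333: tagatcataaaccaacacagtaattgcctt
Chd1 at 2382: cctcaggctttttgaacattatgatggagc
For the chaperone gene Hspa4 the 3′ probe (chromosome 10, 38705693 to 38705752, rn4) rose by 0.50 ± 0.10 and the probe at the 5′ end (38748920 to 38748979) stood at -0.0100 ± 0.069.
Hspa4 at 4396: tccaggttgcaatatccaaattggtttgtt
Hspa4 at 79: cgtggacggtcgtccggcttcgcccgccca
The 3′ probes were also the brighter ones in both genes, with mean log2 intensities of 9.58 and 9.31 against 8.41 for Chd1 and 11.7 against 8.73 for Hspa4. Hist2h3c2 has 2 probes that share 29 bases, shown here in capitals because all of them are common to both.
Hist2h3c2 shared run: TCTGTTCGAGGACACCAACCTGTGCGCCA
The brighter of the 2 (chromosome 2, 191081759 to 191081818) fell by 0.34 ± 0.081 and the dimmer (191081728 to 191081787) stood at 0.17 ± 0.059, so overlapping probes of 1 histone gene pointed in opposite directions. Histone genes are near-identical copies of each other, and which copies a probe reads was not tested. Among the 39 named genes past the threshold with another probe, 44 of 57 other probes lay on the same side of 0. Some of these lay near 0, such as those of Ncbp1 (0.042 ± 0.046) and Zfp444 (0.042 ± 0.065). The only other probes to pass an adjusted p of 0.05 in limma belonged to Chd1, Rbm12 and Strn. On the opposite side, 12 genes had at least 1 probe, among them Dcaf7, whose probe at 727 stood at -0.041 ± 0.052 against 0.34 at 5136.

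Genes of RNA handling changed singly. Of 64 splicing factors Srsf9 alone passed (1.56%, against 0.458% of all features), with 29 members above 0 and 35 below, and of 36 Rbm genes Rbm12 and Rbm4 passed (5.56%), both higher. Virma and Cbll1, subunits of the complex that methylates adenosine in messenger RNA, went opposite ways, at 0.31 ± 0.072 and -0.26 ± 0.061. Their other probes lay nearer 0, with 3 Virma probes at 0.033 ± 0.054, 0.0071 ± 0.057 and -0.0051 ± 0.050 and 2 Cbll1 probes at 0.054 ± 0.18 and -0.060 ± 0.057. Edc3, an activator of decapping, was the 1 member of 56 messenger RNA decay genes past the threshold (1.79%) and fell by 0.35 ± 0.074; another of its probes lay on the opposite side of 0. Fubp1 (0.23 ± 0.048), which binds single-stranded DNA and RNA, and Iws1 (0.21 ± 0.048), which travels with RNA polymerase II, rose. Of 74 genes of RNA polymerase II and Mediator 2 passed (2.7%), of which Med26 rose by 0.30 ± 0.064 and Taf9, a subunit of the basal factor TFIID, fell by 0.27 ± 0.061.

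Few transfer RNA and translation genes passed the threshold, although some of their families lay mostly above or mostly below 0. Ears2, which charges mitochondrial transfer RNA with glutamate, rose by 0.34 ± 0.082 and was 1 of 33 aminoacyl-tRNA synthetases past the threshold (3.03%, against 0.458% of all features). In that family 24 of 33 lay above 0 (72.7%, against 55.5%) and 9 had an unadjusted p under 0.05, all 9 higher. The modifying enzymes Trmt10b (0.26 ± 0.062) and Thumpd3 (0.27 ± 0.061) rose as well. Of 69 mitochondrial ribosomal protein genes 0 passed, with 13 higher and 3 lower at an unadjusted p under 0.05 (7.53% and 4.84% of all features). The 84 cytosolic ribosomal protein genes also gave 0 calls in limma, with a median of -0.048. Of these, 15 lay above 0 (17.9%, against 55.5% of all features) and 9 were lower at an unadjusted p under 0.05. WT replicate 1 had the highest mean of these genes (0.383, where the other WT arrays lay between 0.125 and 0.187), and the median was -0.0087 without it.

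Zinc finger and ring finger families held calls on both sides. Of 185 Zfp genes 4 rose (2.16%, against 0.458% of all features) and 0 fell: Zfp260 (0.40 ± 0.081), Zfp467 (0.36 ± 0.081), Zfp566 (0.34 ± 0.077) and Zfp444. At an unadjusted p under 0.05 that family had 20 higher and 18 lower (7.53% and 4.84% of all features). Its median of -0.0035 was 0.0028 with processed signals and 0.0057 in the red channel. Of 33 Zbtb genes 2 passed (6.06%), of which Zbtb45 rose by 0.24 ± 0.050 and Zbtb43 fell by 0.37 ± 0.074. Of 61 Rnf genes 2 passed (3.28%), of which Rnf187 rose by 0.52 ± 0.12 and Rnf139 fell. The WT arrays of Rnf187 stayed between -0.39 and -0.17 while the CR arrays spread from -0.35 to 0.74, with CR replicates 2 and 3 inside the WT range.

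Cytosolic chaperones, which fold newly made and heat-damaged proteins, stood higher in CR as a list, although few members passed singly. Of 42 members 2 rose (4.76%, against 0.458% of all features) and 0 fell; 35 lay above 0 (83.3%, against 55.5%) and the median was 0.10, against 0.012. At an unadjusted p under 0.05, 15 were higher and 0 lower (7.53% and 4.84% of all features). Hspa4, which exchanges the nucleotide of Hsp70, ran from -0.65 to 0.089 in WT and from -0.0066 to 0.68 in CR, and Hspa14, a ribosome-bound Hsp70, from -0.47 to -0.12 and from -0.19 to 0.16. The 2 genes rose by 0.50 ± 0.10 and 0.29 ± 0.057 (adjusted p = 0.0172 and 0.0164). Hgh1, which helps the chaperonin fold an elongation factor, is not on the list and rose by 0.32 ± 0.064.

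Single arrays shaped the chaperone values. The mean of the cytosolic chaperones lay between -0.232 and -0.117 in 6 WT arrays and at 0.0670 in WT replicate 1; in CR it lay between -0.117 and 0.353, with replicates 3, 1 and 2 highest. Dnaja1, a cochaperone of Hsp70, stood between -0.91 and -0.72 in 6 WT arrays and at 0.038 in WT replicate 1, and its CR arrays ran from -0.58 to 1.22 (0.62 ± 0.20, adjusted p = 0.133). Hspa8, the constitutive Hsp70, ran from -0.77 to -0.51 in 6 WT arrays with WT replicate 1 at 0.26, and from -0.57 to 0.56 in CR (0.40 ± 0.16). The inducible Hspa1b stayed between -0.31 and 0.016 in WT and reached 1.14, 0.50 and 1.72 in CR replicates 1, 2 and 3 against -0.26 to 0.10 in the other CR arrays (0.46 ± 0.21, adjusted p = 0.362). These 3 genes were named after their values were seen. Tcp1, a subunit of the chaperonin, came nearest to the threshold among the others (0.26 ± 0.063, adjusted p = 0.0523) and passed it without WT replicate 1 (adjusted p = 0.0258). The list median was 0.12 without WT replicate 1 and 0.075 without CR replicate 3. What set these arrays apart was not tested.

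Heat shock genes are known to be driven by factors that bind repeats of GAA and its complement upstream of their start. A run of 3 alternating GAA and TTC units with any 2 bases between them, starting with either unit so that both strands were covered, was searched in RefSeq promoters (GRCr8, 250 bases before to 50 after each gene's start). It was found in 4 of 35 cytosolic chaperones with a promoter entry (11.4%), in 0.521% of 9596 tested genes and in 0.794% of all 27457 genes. The matches are shown in capitals inside 30 bases, because heat shock factors are the known regulators of these chaperones.
Hsph1, chr12:10427324-10427353, plus strand: gccgcagaTTCTGGAAAGTTCtcctcagta
Hspa8, chr8:50080451-50080480, plus strand: cggaacccTTCTGGAAGGTTCtaagacagg
Hspa8, chr8:50080293-50080322, plus strand: gcgagcgtGAAAGTTCCAGAAcgctgcggt
Dnaja1, chr5:60638405-60638434, plus strand: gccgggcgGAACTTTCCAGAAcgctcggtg
Cct4, chr14:101193074-101193103, plus strand: gcgtcgctTTCTGGAAGGTTCgtggaggcg
Of these 4 genes Hsph1, an Hsp110 chaperone, stood at 0.44 ± 0.19, with Hspa8 and Dnaja1 as above and the chaperonin subunit Cct4 at 0.030 ± 0.099; none passed the threshold. The run was found in 0 of 48 genes that rose and in 0 of 14 that fell among those with a promoter entry.

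Chaperones of the endoplasmic reticulum gave 0 calls. Of 33 chaperones and stress genes of that compartment 0 passed in limma. At an unadjusted p under 0.05, 6 were higher and 2 lower (7.53% and 4.84% of all features). The median was 0.032 (0.017 without WT replicate 7 and 0.049 without CR replicate 3). Pdia4, a disulphide isomerase, came nearest (0.34 ± 0.087, adjusted p = 0.0603). Ostc, a subunit of the enzyme that attaches sugars to new proteins, is outside the list and rose by 0.23 ± 0.052.

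Methionine and one-carbon metabolism, which supplies methyl groups, held 2 rises among 37 genes (5.41%, against 0.458%) and 0 falls. Mat2a, the enzyme that turns methionine into S-adenosylmethionine, ran from -0.55 to 0.15 in WT and from -0.16 to 0.63 in CR, with WT replicate 1 the highest WT array. It rose by 0.50 ± 0.12 (adjusted p = 0.0486). Pdf, which removes the formyl group from methionine of mitochondrial proteins and is not an enzyme of methyl supply, rose by 0.39 ± 0.088. At an unadjusted p under 0.05, 11 were higher and 0 lower (7.53% and 4.84% of all features). Of the 37, 26 lay above 0 (70.3%, against 55.5% of all features).

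Neighbouring probes bore on the Mat2a value. RGD1560523, named in the array design as similar to an S-adenosylmethionine synthetase, also rose, by 0.49 ± 0.11, and its probe (chromosome 4, 105738543 to 105738602, rn4) lies 2281 bases from the Mat2a probe that passed (105740884 to 105740943) and 2216 bases from the other Mat2a probe (0.34 ± 0.12). The first 30 bases of the 3 probes show that they read different stretches.
Mat2a at 669: tcagagtccacacaattgttatatctgttc
Mat2a at 734: gatgctctgaaggagaaattgatcaaagct
RGD1560523 at 2696: tgtctggttctcaattccaacagtttaatg
All 3 lay above 0, as did a second RGD1560523 probe on chromosome 13 (16278950 to 16279009, 0.32 ± 0.096, adjusted p = 0.109 in the limma fit that kept all probes apart). Whether the RGD1560523 probe reads a separate gene or another stretch of the Mat2a transcript was not tested.

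**Figure D3:**
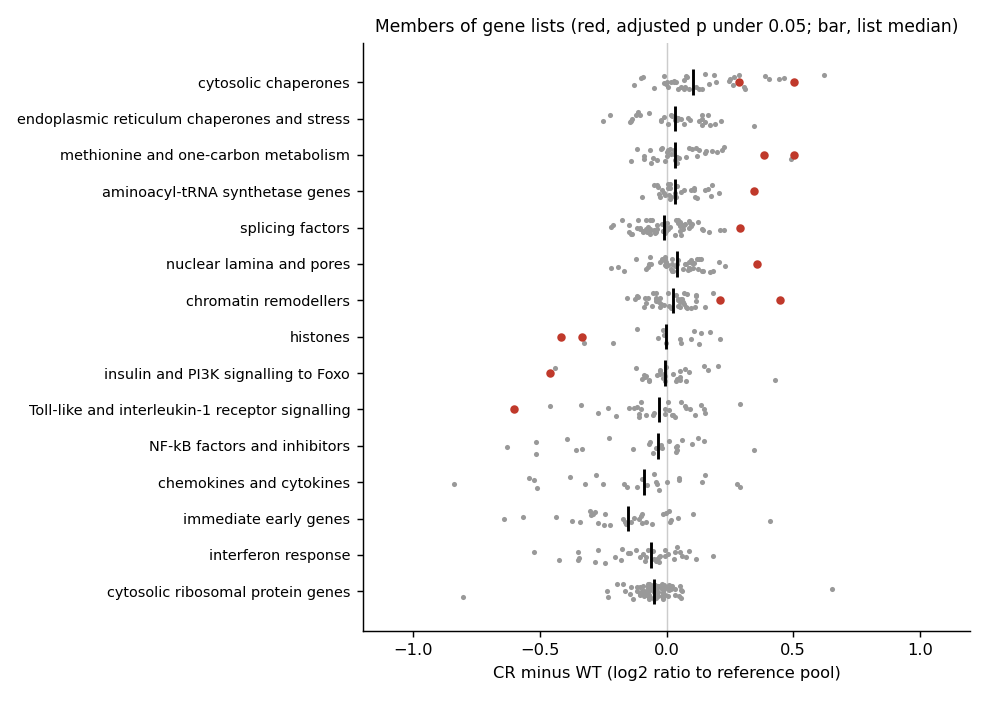
Each row is a gene list and each point the CR minus WT difference (log2 ratio to the pool) of 1 member, red where the adjusted p is under 0.05, with a bar at the list median. Cytosolic chaperones lie mostly right of 0 (median 0.10), immediate early genes (-0.15) and chemokines and cytokines (-0.088) mostly left, and the red points are single members.

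Signalling genes past the threshold were few and lay on both sides. Foxo1, a transcription factor that insulin keeps out of the nucleus, had 6 of 7 WT arrays between 0.35 and 0.74 and WT replicate 7 at -0.065; CR arrays ran from -0.38 to 0.35 with a median of -0.027. It fell by 0.46 ± 0.096 (adjusted p = 0.0246). Of 31 genes of insulin and PI3K signalling to Foxo it was the 1 call (3.23%, against 0.458% of all features). Irs2, an adaptor of the insulin receptor, stood at -0.44 ± 0.15 (adjusted p = 0.16) and Insr, the receptor itself, at 0.024 ± 0.077, a value that was -0.036 with processed signals and -0.063 without WT replicate 6. Of 21 genes on the list of Foxo targets 0 passed, with 3 higher and 4 lower at an unadjusted p under 0.05 (7.53% and 4.84% of all features). Their median of -0.035 ran from -0.056 (without CR replicate 1) to -0.0042 (without WT replicate 2) with 1 array left out and was -0.066 with processed signals. Oser1, a Foxo target that did pass (-0.35 ± 0.067), was not on that list and is counted with the antioxidant genes.

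Traf6, an adaptor between Toll-like or interleukin-1 receptors and NF-kB, showed the largest size among calls and a wide spread. WT arrays ran from 0.043 to 0.83 and CR arrays from -0.66 to 0.45, with CR replicates 1, 5 and 9 inside the WT range. It fell by 0.60 ± 0.14 (adjusted p = 0.0494) and passed in 4 of the 18 fits that left out 1 array. Of 32 genes of that pathway it was the 1 call (3.12%, against 0.458% of all features), with 3 higher and 5 lower at an unadjusted p under 0.05 (7.53% and 4.84% of all features). Of 25 NF-kB factors and inhibitors 0 passed, 2 were higher and 7 lower at an unadjusted p under 0.05. Their median of -0.035 ran from -0.052 to -0.015 (without WT replicate 6) with 1 array left out and was -0.061 with processed signals; without WT replicate 3 it was -0.020. Tbk1, a kinase of the antiviral response (-0.23 ± 0.066, adjusted p = 0.0982), Nfkbie, an NF-kB inhibitor (-0.33 ± 0.097), and Birc3, an NF-kB target (-0.52 ± 0.16), came nearest.

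Among 24 chemokines and cytokines 0 passed in limma, and 7 lay above 0 (29.2%, against 55.5% of all features). At an unadjusted p under 0.05, 1 was higher and 4 lower (7.53% and 4.84% of all features). The median was -0.088. It was -0.24 with the processed signals of the scanner software. The adhesion molecule Icam1 stood at -0.51 ± 0.13 (adjusted p = 0.0681) and the chemokine Ccl3 at -0.55 ± 0.15. Of 32 immediate early genes, which respond within minutes to activation or handling of cells, 6 lay above 0 (18.8%), 4 were lower and 1 higher at an unadjusted p under 0.05 and 0 passed. Their median was -0.15, and -0.26 with processed signals. Of 38 interferon response genes 10 lay above 0 (26.3%) and 0 passed, with 4 lower and 0 higher at an unadjusted p under 0.05.

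Map3k9, a kinase upstream of the stress kinase JNK, was the 1 call among 50 MAP kinase cascade genes (2%, against 0.458% of all features). Its WT arrays stood between 0.34 and 0.49 except WT replicate 1 at 0.125, and its CR arrays between -0.51 and 0.25; it fell by 0.47 ± 0.10. Creb1, a transcription factor that responds to cyclic AMP, rose by 0.24 ± 0.056, and Crk, an adaptor of tyrosine kinase signalling, by 0.35 ± 0.081. Sphk2, which makes sphingosine-1-phosphate in the nucleus, rose by 0.23 ± 0.054.

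The lists of leptin signalling, fatty acid synthesis, fatty acid oxidation and cholesterol gave 0 calls in limma, where 0.458% of all features were called. Lepr, the leptin receptor, was not among the features that passed the filter on dim probes. Of 31 genes of leptin and JAK-STAT signalling, 20 lay above 0 (64.5%, against 55.5% of all features). At an unadjusted p under 0.05, 2 were higher and 1 lower (7.53% and 4.84% of all features). Socs3, the feedback inhibitor of that signalling, stood at -0.098 ± 0.18. Stat3 stood at 0.14 ± 0.059 (adjusted p = 0.287). Of 33 genes of fatty acid synthesis and lipid uptake, 6 were higher and 1 lower at an unadjusted p under 0.05. Agpat1, an enzyme of phospholipid and triglyceride synthesis, stood at 0.22 ± 0.055 (adjusted p = 0.0523), and Fasn, fatty acid synthase, at 0.24 ± 0.068 (adjusted p = 0.0954). Srebf1, the regulator of that pathway, stood at -0.0027 ± 0.072 and the fatty acid transporter Slc27a2 at 0.35 ± 0.85.

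Of 36 genes of mitochondrial fatty acid oxidation 26 lay above 0 (72.2%, against 55.5% of all features). At an unadjusted p under 0.05, 5 were higher and 0 lower (7.53% and 4.84% of all features). Hadha, which carries out steps of that spiral, stood at 0.16 ± 0.046 (adjusted p = 0.0865) and Cpt1a, which controls entry of fatty acids, at 0.11 ± 0.11. Among 34 cholesterol genes 7 were higher and 2 lower at an unadjusted p under 0.05, with the exporter Abcg1 at -0.24 ± 0.066 (adjusted p = 0.0852). Of 20 clock genes 0 passed, with Nr1d2 at -0.21 ± 0.062 and Rora at 0.34 ± 0.10. Of 32 antioxidant genes Oser1 was the 1 call (3.12%, against 0.458% of all features). Of 37 apoptosis regulators 0 passed in limma, with 7 higher and 4 lower at an unadjusted p under 0.05 (again against 7.53% and 4.84%).

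Other rises past the threshold fell in no list. They included Cdipt, which makes phosphatidylinositol, Tfdp1, the partner of E2F factors, Cse1l, which returns importin to the cytoplasm, and Kifc1, a kinesin of the mitotic spindle. Pafah1b2, Nudcd1, Ccdc85b, Ankrd17, Ppil3, Tnfaip8l1, Mypop, Ube2q2, Gpatch2l, Strn, Saysd1, Thap2, Nek1, C12h12orf76 and LOC103690031 rose as well. These 19 rises ran from 0.17 ± 0.040 (Nek1) to 0.40 ± 0.093 (LOC103690031). The remaining falls were Ankrd49 (-0.31 ± 0.069), Cdadc1 (-0.35 ± 0.081) and Firrm (-0.24 ± 0.058). A second probe of Ankrd49 lay on the same side of 0, and other probes of Pafah1b2 lay on both sides.

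No marker of a blood cell type passed the threshold in limma; at an unadjusted p under 0.05 4 of 20 T cell, 1 of 14 NK and 2 of 20 erythroid markers were higher (7.53% of all features). At that level 2 of 16 B cell, 1 of 18 monocyte and 1 of 17 granulocyte markers were lower (4.84% of all features), and 0 of 12 platelet markers were on either side. In RNA from a whole sample, fewer cells of a type and less RNA per cell cannot be told apart. T cell markers lay above 0 in 17 of 20 (85%, against 55.5% of all features, median 0.057) and NK and cytotoxic markers in 12 of 14 (85.7%, median 0.071). WT replicate 1 was the highest WT array of both lists, whose medians were 0.099 and 0.19 without it, and with 1 array left out the NK median ran from 0.025 (without CR replicate 2) to that 0.19, moving by more than 1.5 times also without CR replicate 3, 6, 9 or 11. B cell markers lay above 0 in 2 of 16 (12.5%, median -0.15) and monocyte markers in 3 of 18 (16.7%, median -0.14). The summed level of every list overlapped between groups: the mean over B cell markers ran from -0.51 to 0.29 in WT and from -0.90 to 0.38 in CR, over monocyte markers from -0.15 to 0.31 and from -0.43 to 0.16, and over T cell markers from -0.23 to 0.17 and from -0.16 to 0.20. WT replicate 1 was the lowest WT array for B cell markers, whose median was -0.23 without it.

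Platelet markers lay above 0 in 12 of 12 (55.5% of all features did), with a median of 0.46, although none had an unadjusted p under 0.05. Their mean ran from -1.54 in WT replicate 7 to 0.28 in WT and from -0.56 to 0.76 in CR, and the median was 0.26 without WT replicate 7. Granulocyte markers lay above 0 in 3 of 17 (17.6%) and red cell markers in 6 of 20 (30%, median -0.18, between -0.33 and -0.049 with 1 array left out). Hbe1, an embryonic globin gene, stood apart from that list at 0.94 ± 0.29 (adjusted p = 0.133). MHC class II genes lay above 0 in 1 of 12 (8.33%, median -0.23, or -0.39 without WT replicate 1, the lowest WT array). Of 35 genes of T cell activation 8 were higher and 2 lower at an unadjusted p under 0.05 (7.53% and 4.84% of all features). The chemokine receptor Cxcr3, found on effector T cells, stood at 0.44 ± 0.11 (adjusted p = 0.0603). With the means of 6 marker lists as covariates 129 features passed, of which 72 were among the 102.

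The Y-linked genes Ddx3y (0.26 ± 0.14 in WT, n = 7, and 0.19 ± 0.13 in CR, n = 11, SD) and Eif2s3y (-0.058 ± 0.21 and -0.096 ± 0.14) differed little between arrays, and no transcript of X inactivation was measured. The sex of a sample is therefore not read from these data here. With the mean of both genes as a covariate 57 features passed, 56 of them among the 102.

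The largest differences of all did not pass. Ldhb, a subunit of lactate dehydrogenase, stood between -2.79 and -2.18 in 5 of 7 WT arrays and at 0.42 and 0.72 in WT replicates 7 and 3. In CR 4 of 11 arrays lay between -2.36 and -1.99 and 7 between 0.54 and 0.90. Both groups thus held arrays of both kinds, and the difference of 1.26 ± 0.66 had an adjusted p of 0.452. RT1-Ba, an MHC class II gene, lay between -2.22 and -1.62 in 4 of 7 WT arrays and between -2.16 and -1.74 in 8 of 11 CR arrays, and Slc27a2 stood at or under -1.84 in 2 WT and 2 CR arrays. Cacfd1 (-1.82 ± 0.81) and RT1-Bb (-1.66 ± 1.19) also exceeded 1 in size, as did LOC100363171 (1.23 ± 0.50) and 4 unnamed features, 8 features in all.

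Within slides the direction held for most calls, although the same arrays had chosen them. Of the 102 features 81 lay on the same side of 0 on all 7 slides that held both groups and 21 on 6 of them. The median difference in the direction of the call was 0.127 on slide 1 and 0.162 on slide 7, and between 0.262 and 0.442 on the other 5. With slide as a fixed block 70 features passed, 61 of them among the 102, and with slide as a random block 106 passed.

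**Figure D4:**
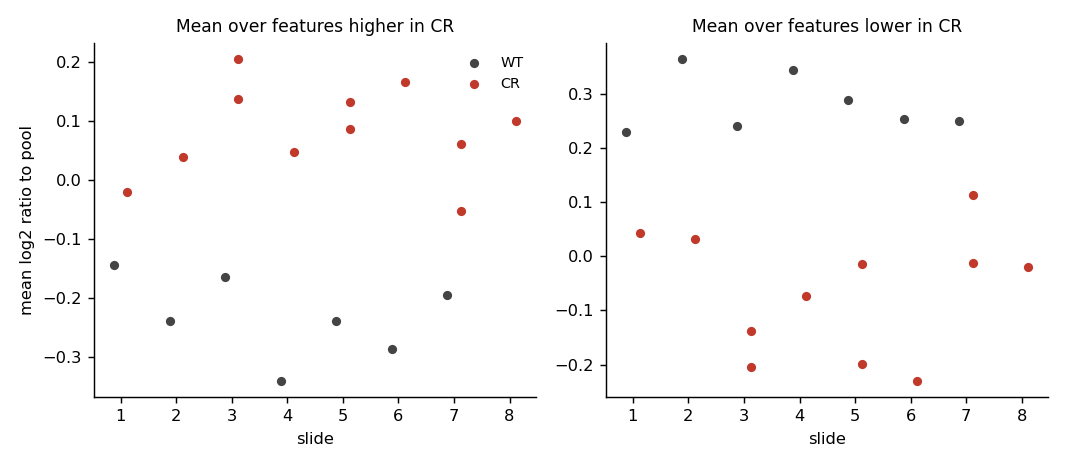
Each point is 1 array, with its slide on the horizontal axis and its mean log2 ratio to the pool over the 78 features higher (left) or 24 lower (right) in CR on the vertical axis, WT in grey and CR in red. On each of the 7 shared slides WT lies below CR on the left and above it on the right, with the narrowest gaps on slides 1 and 7; these arrays also chose the features.

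The differences lay in the red signal, that of the samples. In the red channel alone, all 102 lay on the same side of 0 with a median of 0.31 in the direction of the call, and 34 features passed. The green channel, which held the same pool on every array, gave 0 calls (930 at an unadjusted p under 0.05) and a median of 0.0033 in that direction. The red channel also turned the balance of calls, with 14 higher and 20 lower against 78 and 24 for the ratio; the processed signals of the scanner software gave 38 and 27.

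How many features passed depended on single arrays. Without WT replicate 4 there were 17, without WT replicates 2 or 6 there were 27 each, and without WT replicate 5 there were 49. Without CR replicates 8, 4, 3 and 6 there were 28, 33, 40 and 47, without CR replicates 7 and 5 there were 64 and 65, and without CR replicates 1 and 9 there were 158 and 207. The genes that passed in all 18 of these fits were 9: Prep, Chd1, Smim20, Dcaf7, Srsf9, Zfp444, Tor1aip2, Rbm12 and Ncbp1. Hspa4, Rnf139, Oser1 and Bahd1 passed in 17, Foxo1 in 14, Mat2a in 6, and 39 of the 75 named genes passed in fewer than 9.

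**Figure D5:**
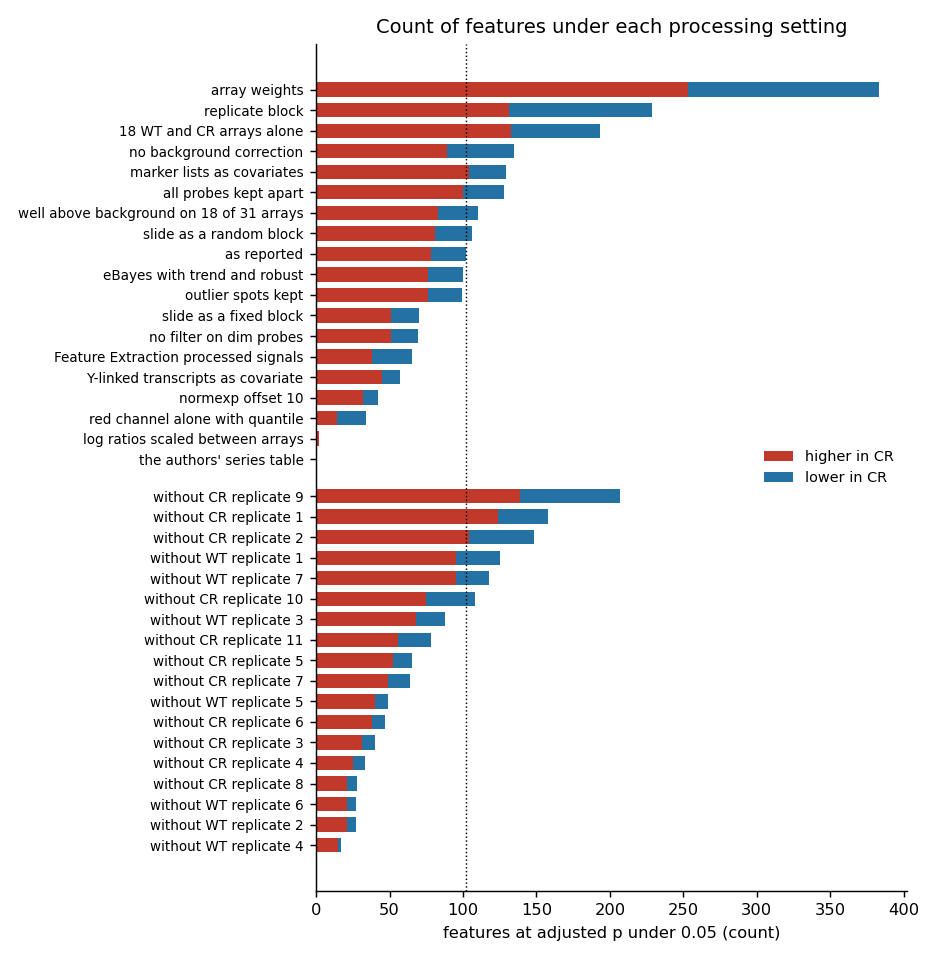
Each bar counts the features at an adjusted p under 0.05 for CR against WT under 1 setting, split into higher (red) and lower (blue) in CR, with the reported count of 102 as a dotted line. The upper block changes the processing or the model and runs from 0 to 383, and the lower block leaves out 1 array and runs from 17 to 207.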

How the data were processed

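Gene expression was measured on 31 two-colour Agilent rat arrays. Per the file headers, the deposited scanner files hold red and green intensity values per spot, with background, outlier and detection flags; they were made with Agilent Feature Extraction 10.7.3.1, per the submitters' processing notes. The authors also deposited a series table of log2 values, with scale and centring not stated, which followed each array's own red intensity on a log2 scale (r = 0.9988 for WT replicate 1, with a median of 8.166 in every column) and was used only as an alternative; 0 of its columns were left unused.

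Intensities were background-corrected in limma 3.58.1 (R 4.3.3) with normexp and an offset of 50, and log2 ratios of red over green were normalized by loess within each array. Of 45018 spots per array 1639 were controls and were left out, as were 5483 outlier values (0.408%). Spots of a probe were averaged. Of 41012 probes, 26721 were well above background in red on at least 7 of 31 arrays and were kept. Each gene was represented by its brightest probe on average, giving 22264 features. Gene names came from the array design, updated through RefSeq; coordinates are those of the array design (rn4).

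One limma model (lmFit, eBayes) over 31 arrays gave the CR minus WT difference, with Benjamini-Hochberg adjustment over all 22264 features and a threshold of 0.05. Values for several probes of a gene come from the same fit with all probes kept apart. Genes named are those past the threshold with a symbol, members of the pathway and marker lists (those past the threshold, otherwise the 3 with the smallest p), genes of leptin and lipid handling fixed by name and, after their values were seen, further chaperones and genes whose groups did not overlap. The members and lists were chosen with earlier results of these data known. Replicate numbers shared by the groups did not pair the arrays. Some genes are not reported here. The steps were tested on simulated data. Alternatives changed background correction, normalization, filter, probes, arrays, blocks and covariates.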

Additional observations from a re-analysis of the deposited data

Results flagged for a closer look

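Of 194 named genes, 19 had 1 WT array far from the other 6, by a gap rule whose 95% critical value is meant to let chance flag about 1 in 20 groups. WT replicate 1 accounted for 11 of them. Among chaperones and cochaperones it was the highest WT array, with Hspa8 at 0.263 (the others -0.765 to -0.514), Dnaja1 at 0.0378 (-0.914 to -0.724), Stip1 at 0.231 (-0.486 to -0.282), Ahsa1 at 0.0571 (-0.493 to -0.344) and Fkbp5 at 0.256 (-0.335 to -0.0986). Among markers of B cells and antigen presentation it was the lowest, with Fcer2 at -0.674 (-0.0261 to 0.285), Ly86 at -0.382 (0.029 to 0.266) and Cd74 at -0.587 (0.0482 to 0.452). The NK and T cell receptor gene Il2rb stood at 0.197 there (-0.444 to -0.231).

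Genes past the threshold with such an array were C12h12orf76, at 6.05e-05 in WT replicate 1 (-0.29 to -0.207 in the others), and Map3k9, at 0.125 in the same array (0.336 to 0.485). In WT replicate 4 they were Snorc at 0.45 (0.138 to 0.264), Strn at -0.164 (0.0103 to 0.136) and Mterf3 at -0.209 (-0.093 to -0.0304). Strn and Mterf3 were named as higher in CR and Snorc as lower, so in each of them WT replicate 4 lay on the side of the difference.

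The remaining genes each had another array apart. The platelet gene Gp5 stood at -1.77 in WT replicate 7 (-0.618 to 0.0978) and the autophagy gene Atg5 at -0.297 in WT replicate 6 (-0.0323 to 0.105). Insr stood at -0.511 in WT replicate 6 (0.00884 to 0.208), Cpt1a at -0.627 in WT replicate 5 (-0.107 to 0.18) and Gse1 at -0.237 in the same array (-0.0697 to 0.0202). What set these arrays apart was not tested.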

How the results depend on the processing

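The number of features past the threshold (102) moved with the processing. All 102 kept their direction under every alternative except the green reference channel, added after the data were seen, where 56 did. The same arrays had chosen these features, so the kept directions are no separate support for them. Fewer passed with a normexp offset of 10 (42), the scanner software's processed signals (65), log ratios scaled between arrays (2), the red channel alone (34), the authors' series table (0, with 2136 at an unadjusted p under 0.05 in limma), the Y-linked covariate (57) and the green channel (0, with 930). More passed with the 18 arrays alone (193, of which 93 were among the 102), array weights (383) and the replicate block (229, of which 92 were among the 102), where no WT array matched its own number best. Leaving out 1 array gave 17 to 207. The causes were not tested. Signs turned for 4 genes near 0 or of wide spread. Eif2s3y stood at 0.0287 with marker lists, 0.0135 with the Y-linked covariate and between -0.0729 and 0.0275 without 1 array (0.0275 without WT replicate 7). Srebf1 stood at 0.0027 in the series table and between -0.0317 and 0.0390 without 1 array, above 0 in 8 of those fits. Slc27a2 stood between -0.179 (without WT replicate 5) and 0.688 without 1 array. Insr stood at -0.0152 with no background correction, -0.0357 with processed signals, -0.0601 in the series table and between -0.0634 (without WT replicate 6) and 0.0566 without 1 array. The number of arrays limits the precision of every feature. Dim features did not have the larger SE: its median was 0.061 in the dimmest intensity class and 0.070 in the brightest.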
